A study of Arabidopsis thaliana with 4 samples.

Results

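*ERF024* (AT2G36450) and *ERF4* (AT3G15210) are transcription factor genes of the AP2/ERF family that stand in the table of genes called lower in *msil2/4* inflorescence stems. They were taken by their identifiers and are 2 of the 78 genes in that table and of the 234 genes in both tables. RNA was sequenced from the basal section of mature stems in 4 libraries, 2 from *msil2/4* plants and 2 from wild-type Col-0 plants, all untreated and grown in long days. The double mutant carries T-DNA insertions in *MSIL2* and *MSIL4*, which encode Musashi-like RNA-binding proteins, and is described as a knockdown in the labels. The paper's checklist describes its replicates as biological, and the labels give only replicate numbers.

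AP2/ERF proteins bind DNA through the AP2 domain. The DREB branch is best known for responses to cold, drought and salt, and the ERF branch for responses to ethylene, jasmonate and pathogens. *ERF024*, also called *HARDY*, belongs to DREB subfamily A-4, and its overexpression is known to thicken the root network and to improve drought tolerance. *ERF4* belongs to ERF subfamily B-1 and encodes a repressor that carries an EAR motif, a short leucine-rich element that recruits co-repressors, and it is known to restrain jasmonate- and ethylene-responsive defense genes.

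In the RefSeq annotation of TAIR10.1, *ERF024* lies on the minus strand of chromosome 2 from 15294303 to 15294857, and *ERF4* on the plus strand of chromosome 3 from 5121303 to 5122562. The annotated *ERF4* mRNA begins inside these bounds, at 5121422, and only mRNA models were read. Both have 1 annotated mRNA, which has no introns. Models without introns were found for 18 of the 76 protein-coding genes of the Down table (23.7%) and for 5501 of all 27444 protein-coding genes. The *ERF024* model is 555 nt long and holds only the coding sequence, the only such model among those 76 genes. Models of this kind were found for 3108 of all 27444 protein-coding genes (11.3%). The *ERF4* transcript of 1141 nt has 669 coding and 472 non-coding nucleotides. The coding sequences have 184 codons in *ERF024* and 222 in *ERF4*, stop codon not counted. Each holds 1 AP2 domain. Because the DNA-binding domain is what unites the 2 genes, the stretches that encode it are shown, from the first conserved element of the domain to its last, with capitals for bases shared at aligned codons.
ERF024: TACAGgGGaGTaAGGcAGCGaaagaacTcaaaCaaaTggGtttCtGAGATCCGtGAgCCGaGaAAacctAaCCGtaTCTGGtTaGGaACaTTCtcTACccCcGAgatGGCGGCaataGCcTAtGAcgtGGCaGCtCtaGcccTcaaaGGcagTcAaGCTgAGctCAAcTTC
ERF4: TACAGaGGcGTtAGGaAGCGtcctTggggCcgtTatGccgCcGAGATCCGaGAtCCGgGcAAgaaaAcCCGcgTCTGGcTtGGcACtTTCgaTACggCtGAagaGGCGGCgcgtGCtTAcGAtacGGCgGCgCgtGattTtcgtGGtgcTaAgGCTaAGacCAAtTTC

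The *ERF024* stretch lies at chr2:15294645-15294815 and the *ERF4* stretch at chr3:5121544-5121711. Of 56 aligned codons, 30 (53.6%) encode the same amino acid and 10 are identical, and 95 of 168 bases (56.5%) are shared. Near its end, *ERF4* also encodes the EAR motif, shown because such motifs are known to recruit co-repressors, with capitals for the core of the motif.
ERF4: gatctaGATCTTAATTTGCCTCCT

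This stretch lies at chr3:5122099-5122122 and is followed by 5 codons before the stop. The core pattern occurs in 8 of the 15 annotated B-1 genes, in none of the 16 A-4 genes searched, *ERF024* included, and in 0.681% of all protein-coding genes.

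Expression is given in RPKM, reads scaled to transcript length and to the mapped reads of the library, as deposited for each library. *ERF024* was at 0.56 and 0.80 RPKM in the *msil2/4* libraries, against 40.0 and 89.0 RPKM in the Col-0 libraries. Both *msil2/4* values lay below 1 RPKM and far below either Col-0 value, and the groups did not overlap. The means were 0.680 ± 0.170 RPKM in *msil2/4* and 64.5 ± 34.7 RPKM in Col-0 (SD, n = 2 each), so that 1.05% of the Col-0 mean remained in the mutant, a level 94.9-fold lower. Over the 4 pairings of an *msil2/4* with a Col-0 library, the *msil2/4* level was 50.01- to 159-fold lower.

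*ERF4* was at 51.6 and 64.8 RPKM in the *msil2/4* libraries, against 167 and 199 RPKM in the Col-0 libraries. The groups did not overlap here either, but the mutant stems still held a substantial level. The means were 58.2 ± 9.31 RPKM in *msil2/4* and 183 ± 23.1 RPKM in Col-0 (SD, n = 2 each), which leaves 31.8% of the Col-0 mean, a level 3.14-fold lower. The 4 pairings ranged from 25.9% to 38.9%.

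Both *msil2/4* libraries were below both Col-0 libraries for each of the 2 genes, as they were for 78 of the 234 listed genes (33.3%), that is, for every gene in the Down table. The genes were chosen from that table, which was made from the same contrast, so the genotype difference of *ERF024* and *ERF4* is given as a description with no p-value. In stem tissue, fewer cells that express a gene and less RNA per cell cannot be told apart.

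**Figure D1:**
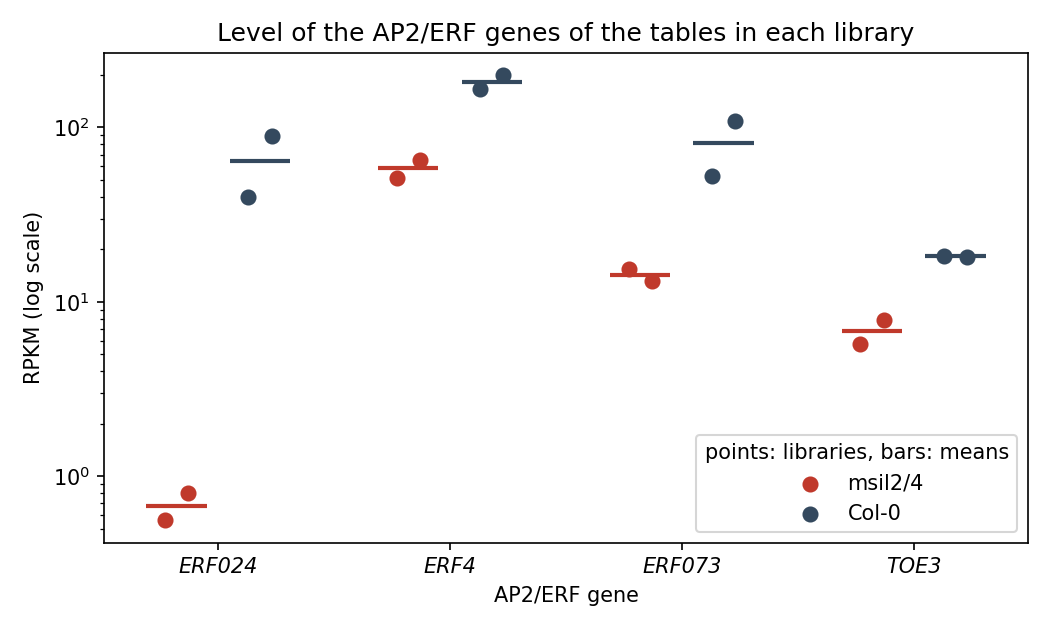
Level of the 4 AP2/ERF genes of the tables in each library, in RPKM on a log axis, with *msil2/4* to the left of Col-0 for each gene; points are libraries and bars are means of 2 libraries. *ERF024* is below 1 RPKM in both *msil2/4* libraries and at 40.0 and 89.0 RPKM in Col-0, while *ERF4* is at 51.6 RPKM or more in all 4 libraries.

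On the scale of log2(RPKM + 1), the log2 fold change of *msil2/4* over Col-0 was -5.18 for *ERF024* (standard error 0.47, limma) and -1.64 for *ERF4* (standard error 0.33, limma). Within the replicates of equal number, *ERF024* remained at 1.40% and 0.899% of Col-0, and *ERF4* at 31.0% and 32.5%. The loss of *ERF024* was the largest of the 78 genes in the Down table and that of *ERF4* ranked 54, where the table had a median of -1.80 and quartiles of -2.05 and -1.54. The added pseudocount of 1 RPKM shrinks the value of *ERF024*, which was -6.28 with 0.1 RPKM and -6.46 with 0.01 RPKM in its place, and it kept rank 1 on all of these scales. *ERF4* was at -1.65 and -1.66 with the smaller pseudocounts, with ranks of 61 and 62.

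The gene next to *ERF024* in this order was the expansin-like gene *EXLA1*, with 7.35 and 7.48 RPKM in *msil2/4* and 235 and 83.6 RPKM in Col-0, a log2 fold change of -4.07 (standard error 0.55, limma). The 2 log2 fold changes differ by 1.11, where their standard errors add up to 1.02, and the difference was not tested. *ERF4* stood between AT1G51090, a heavy metal transport/detoxification family gene at -1.67, and AT1G72416, a DnaJ-domain gene at -1.63, and did not differ from either beyond its standard error. The Down table ended at AT3G06640, a PAS domain kinase gene with 5.44 and 4.17 RPKM in *msil2/4* and 12.1 and 12.8 RPKM in Col-0, a log2 fold change of -1.22. The authors listed genes whose log fold change passed a limit of 1.5 in either direction on their own values. Genes with a weaker loss were not listed and not analysed here.

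**Figure D2:**
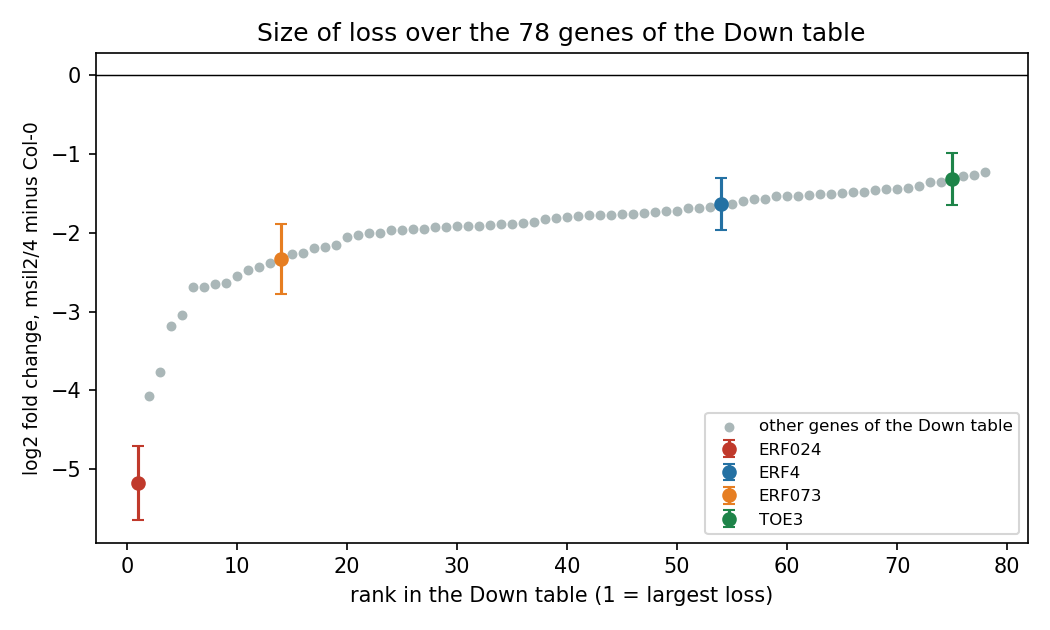
Log2 fold change of *msil2/4* minus Col-0, on the log2(RPKM + 1) scale, against rank for the 78 genes of the Down table; error bars, drawn for the AP2/ERF genes, are 1 standard error from limma. *ERF024* holds rank 1 at -5.18, apart from the rest, and *ERF4* lies in the flat part of the curve at rank 54 and -1.64.

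The share of the Col-0 mean that remained in *msil2/4* had a median of 24.8% over the Down table, with quartiles of 19.7% and 30.3% and a highest value of 39.4%. *ERF4*, at 31.8%, was above the upper quartile, in a range whose upper end is bounded by the authors' limit for listing. Only 4 of the 78 genes were under 10%, 3 under 5% and 1, *ERF024*, under 2%. The Col-0 level of *ERF024* was ordinary for these genes, with rank 38 of 78, but its *msil2/4* level ranked 75. *ERF4* was among the more abundant genes of the table in both genotypes, with rank 8 in *msil2/4* and rank 13 in Col-0.

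RPKM is scaled by length, so the 2 genes can be set side by side. *ERF4* was 92.2 and 81.0 times as abundant as *ERF024* in the *msil2/4* libraries, and 4.16 and 2.24 times as abundant in the Col-0 libraries. The genes thus lay far closer together in wild-type stems than in the mutant. The *ERF024* ratio rests on a length of coding sequence alone in the annotation used here, and the length that the authors' software used is not given in the sources used here.

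As ratios, the replicates were less alike for *ERF024* than for *ERF4* in both genotypes. Replicate 2 was 1.43 times replicate 1 for *ERF024* in *msil2/4* and 2.22 times in Col-0, and the corresponding ratios for *ERF4* were 1.25 in *msil2/4* and 1.2 in Col-0. On the log2(RPKM + 1) scale, the *ERF024* replicates differed by 0.21 in *msil2/4* and by 1.13 in Col-0. The *msil2/4* difference is shrunk by the added 1 RPKM, which exceeds both *msil2/4* values of *ERF024*. The Col-0 difference ranked 10 of 78, where the median was 0.54. The *ERF4* replicates differed by 0.32 in *msil2/4*, which is the median of the table, and by 0.26 in Col-0. As a description of genes taken from the Down table, the genotype difference was 4.57 times the larger replicate difference for *ERF024* and 5.09 times for *ERF4*. Leaving out 1 library at a time gave log2 fold changes of -5.75 to -4.61 for *ERF024* and -1.80 to -1.48 for *ERF4*.

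**Figure D3:**
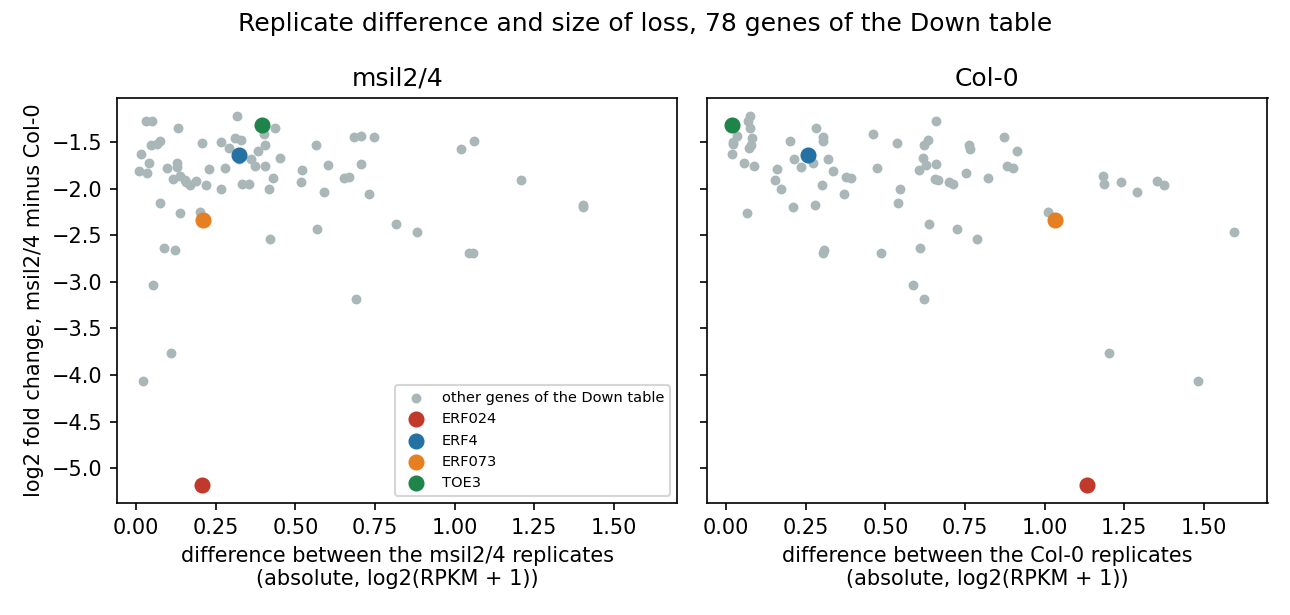
Log2 fold change of *msil2/4* minus Col-0 against the absolute difference between the 2 replicates of *msil2/4* (left) and of Col-0 (right), both on the log2(RPKM + 1) scale, for the 78 genes of the Down table. *ERF024* differs by 0.21 in *msil2/4*, a value shrunk by the added 1 RPKM, and by 1.13 in Col-0, and *ERF4* differs by 0.32 and 0.26.

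Total mapped reads are not part of the tables, so the counting error of a value is unknown. With the 30000000 reads per library that the labels state, taken as if all were mapped, 1 read would be worth 0.0601 RPKM on the *ERF024* model and 0.0292 RPKM on the *ERF4* transcript. The authors' own values per genotype were 0.633 RPKM in *msil2/4* and 69.1 RPKM in Col-0 for *ERF024*, and 54.5 RPKM in *msil2/4* and 195 RPKM in Col-0 for *ERF4*. These are 0.932 and 0.937 times the plain mean of the libraries in *msil2/4*, and 1.07 and 1.06 times it in Col-0, close to the medians over all 234 genes of 0.938 in *msil2/4* and 1.06 in Col-0. With the libraries rescaled to these values, the log2 fold change was -5.32 for *ERF024* and -1.82 for *ERF4*. All 481 windows of 75 nt, the read length, along the *ERF024* model and all 1067 along the *ERF4* transcript occurred once in the genome, no annotated gene overlapped either, and the genes on either side of each were in neither table. The most similar other coding sequence was AT1G12630, also of subfamily A-4, for *ERF024* (73.6% identity over 140 nt) and *ERF8* for *ERF4* (80.7% over 243 nt), and neither was in a table.

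Among genes with a similar course over the 4 libraries, measured as the Euclidean distance between profiles of log2(RPKM + 1) centred on each gene's own mean, the nearest to *ERF024* was the linker histone gene *HIS1-3* (AT2G18050), at a distance of 1.41. *HIS1-3* was at 6.29 and 6.86 RPKM in *msil2/4* and 67.0 and 156 RPKM in Col-0, and shared with *ERF024* the higher value in Col-0 replicate 2. The floral repressor gene *FLC* followed at 2.06, with 0.17 and 0.89 RPKM in *msil2/4* and 9.90 and 15.8 RPKM in Col-0, and *EXLA1* at 2.16. The median distance from *ERF024* over the other 233 genes was 6.96. *ERF4* had much nearer companions, *NAC096*, a NAC transcription factor gene, at 0.22, the wax synthesis gene *CER3* at 0.22 and *AFP4*, which encodes an ABI5-binding protein, at 0.24, against a median of 3.41. *CER3* was at 38.2 and 47.6 RPKM in *msil2/4* and 115 and 122 RPKM in Col-0. *NAC096*, at 0.97 and 1.37 RPKM in *msil2/4* and 5.08 and 5.17 RPKM in Col-0, was far less abundant than *ERF4*. So was *AFP4*, at 2.24 and 2.41 RPKM in *msil2/4* and 7.36 and 9.33 RPKM in Col-0. The added 1 RPKM shrinks the differences of such low genes, so their nearness to *ERF4* depends on this scale. The distance between *ERF024* and *ERF4* was 3.60. These distances describe 4 libraries that all genes share, and the genotype difference is part of each distance.

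**Figure D4:**
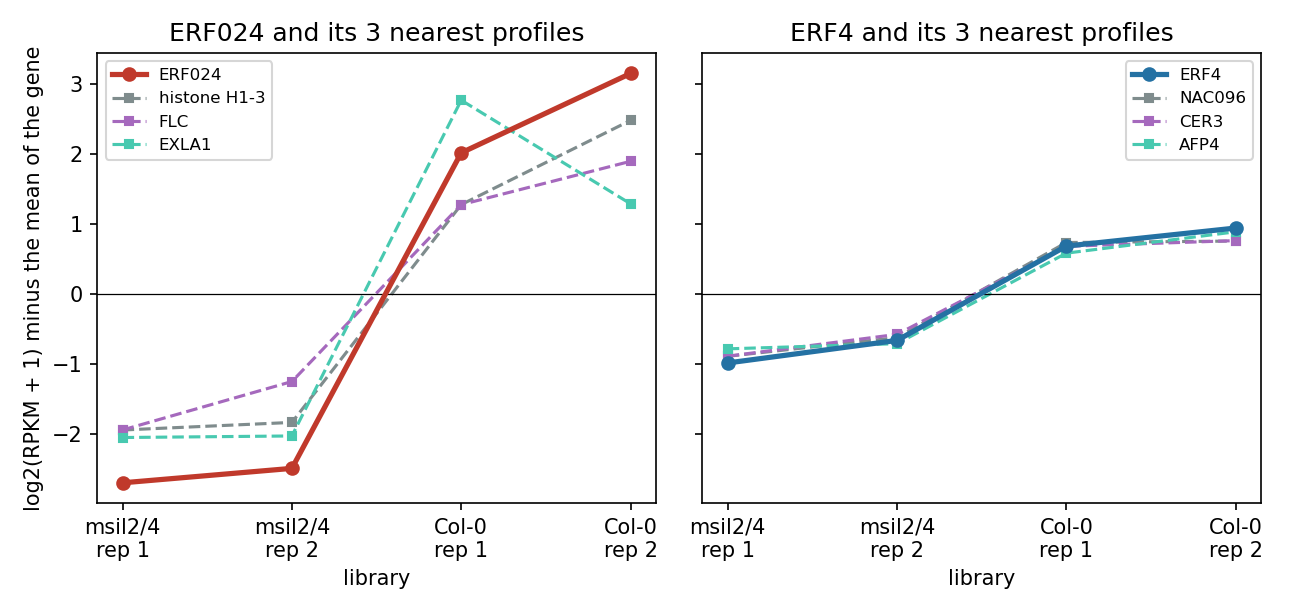
Profiles of *ERF024* (left) and *ERF4* (right) with the 3 genes nearest to each, as log2(RPKM + 1) minus the mean of each gene, over the 2 *msil2/4* and the 2 Col-0 libraries. *ERF024* spans a wider range than *HIS1-3* (labelled histone H1-3), *FLC* and *EXLA1*. On this scale, *ERF4* nearly coincides with *CER3* and with *NAC096* and *AFP4*, whose low values are shrunk by the added 1 RPKM.

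Of 86 AP2/ERF family genes listed by locus, 4 (4.65%) were in the Down table, none was in the Up table and 82 were absent from both. This list does not hold the whole family. Of all 27444 annotated protein-coding genes, 76 (0.277%) were in the Down table and 155 (0.565%) in the Up table. How many of them the authors tested is not given in the sources used here, the family count includes *ERF024* and *ERF4*, which were taken from the Down table, and the shares were not compared by a test. The other 2 family genes were *ERF073* and *TOE3*. The median log2 fold change of the 4 genes was -1.99, where that of the 78 genes of the Down table was -1.80. Both medians are negative because the Down table holds only genes called lower. In limma (adjusted p under 0.05, Benjamini-Hochberg over the 234 genes), 33.3% of the listed genes were called lower, every gene of the Down table among them, and 65.8% were called higher. A call of a listed gene is therefore no independent evidence of its direction. The annotation assigns 117 genes to a subfamily of the ERF and DREB branches, and 3 of them (2.56%) were in the Down table. *ERF024* was the only one of 17 A-4 genes in a table, *ERF4* the only one of 15 B-1 genes, and the third was *ERF073*, of 4 B-2 genes. None of the 6 A-1 genes, the subfamily of the *CBF* cold regulators, and none of the 18 B-3 genes, the subfamily of *ERF1* and *ORA59*, was in a table. Absence from both tables does not show that a gene held its level, because smaller changes were not listed.

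*ERF073* (AT1G72360), also called *HRE1*, encodes a factor of the low-oxygen response. It was at 15.5 and 13.2 RPKM in *msil2/4* and 52.9 and 109 RPKM in Col-0, which gives -2.34 on the log2 scale with a standard error of 0.45 and an adjusted p of 0.00630 (limma). Its Col-0 replicates differed by 1.03 on the log2 scale, with replicate 2 higher, as in *ERF024*. *TOE3* (AT5G67180), an AP2-type gene with 2 AP2 domains that belongs to a group of floral repressors, was at 5.74 and 7.87 RPKM in *msil2/4* and 18.4 and 18.2 RPKM in Col-0, which gives -1.32 with a standard error of 0.33 and an adjusted p of 0.0117 (limma). Without *msil2/4* replicate 1, limma no longer called *TOE3*, at an adjusted p of 0.0591, the highest among its alternatives, whose lowest was 0.00896. *ERF073* was called in each alternative run (limma). Both genes were listed by the authors on the same libraries, so their calls and adjusted p are no independent evidence of a difference.

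Genes that AP2/ERF factors are known to act on or with showed the following. None of 16 genes of ethylene synthesis and signaling, from the receptor gene *ETR1* to *EIN3*, was in either table. Few genes of any kind were, with 0.277% of all protein-coding genes in the Down table and 0.565% in the Up table. This absence does not show that the 16 genes held their level. Of 6 ethylene and jasmonate marker genes, 4 were higher in *msil2/4* (limma) and none lower, with 2 absent from both tables. Their median log2 fold change was 4.57, and 65.8% of the 234 listed genes were called higher, while 0.565% of all protein-coding genes were in the Up table. Among them, the basic chitinase gene *CHI-B* was at 200 and 363 RPKM in *msil2/4* and 13.1 and 36.3 RPKM in Col-0, a log2 fold change of 3.56 (standard error 0.59), and the defensin gene *PDF1.2A*, at 363 and 2251 RPKM in *msil2/4* and 11.7 and 73.2 RPKM in Col-0, had 4.88 (standard error 1.17). Of 10 cold and dehydration response genes, 4 were lower (limma) and none higher, with 6 absent from both tables. Their median log2 fold change was -2.25, and 33.3% of the listed genes were called lower, while 0.277% of all protein-coding genes were in the Down table. *RD29A* was at 23.7 and 32.1 RPKM in *msil2/4* and 218 and 126 RPKM in Col-0, with *XERO2*, *ERD10* and *COR47* at log2 fold changes of -2.69, -1.95 and -1.93. These genes too were listed by the authors on the same libraries, and the lists were not tested against other genes. Whether any of these differences is connected with the level of *ERF024* or *ERF4* was not tested.

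The 250 bases before the annotated transcript start held no GCC box core (GCCGCC) and no DRE core (ACCGAC or GCCGAC), on either strand, in *ERF024* or *ERF4*. These elements, which ERF and DREB factors are known to bind, were found in 1.91% and 7.28% of such windows over all 27444 protein-coding genes. *ERF4* had 1 G-box (CACGTG, which reads the same on both strands and overlaps none of the other elements), 183 bases before its annotated mRNA start. Part of this window lies inside the annotated gene, which begins at 5121303, ahead of the mRNA start at 5121422. The stretch around the element, chr3:5121227-5121256, is shown with the element in capitals.
ERF4: aggaaagaaaaaCACGTGgcaaaagataag

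A G-box was in 6.59% of all windows and in 7 of 76 windows of the Down table (9.21%), but not in that of *ERF024*, whose model starts at the start codon, so that its window need not be a promoter. In animals, Musashi proteins recognize GUAG. The coding sequence of *ERF024* held 1 GUAG, 1.80 per kb, and that of *ERF4* held 2, 2.99 per kb, where the median over all protein-coding genes was 1.81 per kb and 21.1% of genes had none. The median was 2.05 per kb in the Down table and 1.82 per kb in the Up table. These medians are of coding sequences. The whole *ERF4* transcript held the same 2 GUAG, 1.75 per kb, and so none in its non-coding part. The *ERF024* model has no non-coding part to search. The paper places the motifs bound by animal Musashi proteins in the 3'-UTR, which was not searched in other genes. A match of this short element is a description of the sequence only.

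The genotype labels could not be checked against *MSIL2* and *MSIL4*, which neither table lists. The same holds for 11 marker genes of fibers and xylem, phloem, epidermis and leaf, so the tissue was not checked against its markers.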

How the data were processed

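Messenger RNA of 2 *msil2/4* and 2 Col-0 stem samples was sequenced as single reads of 75 nt. The labels and the paper name different library kits. According to the paper and the processing notes, the authors aligned reads to TAIR10 with TopHat2 2.0.7 and Bowtie2 2.3.4, quantified transcripts with Cufflinks 2.2.1 and compared genotypes with Cuffdiff. The authors deposited RPKM values for each library and one per genotype, for called genes only. The paper describes a filter at 1 RPKM, yet 64 of the 234 listed genes have a library under 1 RPKM. A column of the authors' log2 fold changes was not used.

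Here, log2(RPKM + 1) was compared between genotypes with limma 3.58.1 in R 4.3.3 over all 234 genes (two-sided, Benjamini-Hochberg, threshold 0.05) and tested on simulated data. The listed genes were selected for a difference, which limits these p-values, and with 2 libraries in each genotype the smallest exact permutation p is 0.333. If the libraries do not come from separate plants, p-values measure only the spread between these samples, which may be technical. Members and lists were chosen with earlier results of these data known. Named genes were the members, every AP2/ERF gene in a table, up to 4 genes of each other list, the 3 nearest profiles, the neighbors in the order of loss, and the gene of the Down table with the smallest change. Gene models and sequences came from RefSeq (TAIR10.1), whose annotation held all 234 identifiers, and similarity from blastn 2.17.0. Other scripts ran in Python 3.11.15. Alternatives were other pseudocounts, the log2 ratio of means, rescaling, filters, a prior trend, a replicate block and each library left out.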

Additional observations from a re-analysis of the deposited data

How the results depend on the processing

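The log2 fold changes of *ERF024* and *ERF4* were negative under every alternative run, and all values of *ERF4* stayed within 1 SD of its replicates. For *ERF024*, pseudocounts of 0.1 and 0.01 RPKM gave -6.28 and -6.46, and the log2 ratio of mean RPKM gave -6.57, since a pseudocount of 1 RPKM exceeds its *msil2/4* values. Leaving out each library gave -5.75 to -4.61 for *ERF024* and -1.80 to -1.48 for *ERF4*, and between 3 and 4 AP2/ERF genes called lower, a count that includes both of these genes. A filter at 1 RPKM in every library removes *ERF024*, so no value could be given for it, and leaves 3 such genes called. The replicate number as a block changed no call of an AP2/ERF gene (4 called), left the log2 fold changes at -5.18 and -1.64 and widened their standard errors to 0.51 each. Across all 234 genes, the replicate differences of the 2 genotypes were little correlated (0.067, over 2 pairs). Whether some of these genes shared a replicate effect was not tested. Low RPKM values limit the precision of the *ERF024* level in *msil2/4*.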
